A study of Mus musculus with 2 samples.

Results

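The 10 genes described here encode the cytosolic nucleic acid sensing machinery of the cell: the sensors Cgas and Zbp1, the RIG-I-like receptors Ddx58, Ifih1 and Dhx58, the adaptors Sting1 and Mavs, the kinases Tbk1 and Ikbke, and the DNA exonuclease Trex1. They were listed by name, with no threshold on their values, and every probe whose RefSeq accession led to one of these genes was taken, which gave 16 probes for 10 of the 22911 genes named on the array. The cells were LKS+ cells, that is lineage-negative BM cells positive for Kit and Sca-1, which include the hematopoietic stem and progenitor cells (HSPCs). They came from WT mice, had been propagated with stem cell factor, IL-6 and IL-3, and were then co-cultured for 24 h with 150 μg/ml of EVs, the membrane vesicles that cells release, from mouse SP. The EVs came from control mice or from mice with BCR-ABL-driven CML. The methods state that the CML donors had been irradiated, while the sample labels name CML spleen and no irradiation, and the leukemia of the donors and their irradiation cannot be told apart. RNA of each culture was hybridized to 1 one-colour Agilent array, 2 arrays in all on the same slide, with 1 per condition. No replicate check was possible, so that no p-value or standard error over cultures is given and the values describe these 2 cultures.

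Cells detect DNA in the cytosol through cGAS, which makes the second messenger cGAMP; cGAMP binds STING, and STING recruits TBK1. RIG-I and MDA5, the products of Ddx58 and Ifih1, bind viral or other double-stranded RNA and signal through MAVS on mitochondria to TBK1 and IKK-epsilon, the product of Ikbke. Both routes lead to phosphorylation of IRF3 and to type I interferon, and several of the sensors are themselves interferon-stimulated genes. In HSPCs, type I interferon is known to drive quiescent cells into cycle. The series asks how EVs of leukemic mice alter normal HSPCs, and the comparison below gives the transcripts of each step of this machinery, CML EV against control EV.

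Promoter sequences of the RIG-I-like receptor genes Ddx58 and Ifih1 and of the kinase genes Ikbke and Tbk1 are shown because the receptors shared a direction between the arrays, whereas the ratios of the kinases lay apart. They are from RefSeq (GRCm38.p6), run 5′ to 3′ on the strand of the gene from 250 bases before the start site to 50 after it, and capitals mark a match to the core of the interferon-stimulated response element (ISRE), searched on both strands as GAAANNGAAA.
Ddx58, chr4:40239776-40240075, minus strand: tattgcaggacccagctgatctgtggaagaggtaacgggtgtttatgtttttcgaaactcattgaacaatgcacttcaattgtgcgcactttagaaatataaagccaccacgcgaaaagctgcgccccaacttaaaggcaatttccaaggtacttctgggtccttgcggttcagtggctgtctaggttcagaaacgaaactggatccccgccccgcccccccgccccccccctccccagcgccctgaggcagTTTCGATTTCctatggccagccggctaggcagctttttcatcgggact
Ifih1, chr2:62646206-62646505, minus strand: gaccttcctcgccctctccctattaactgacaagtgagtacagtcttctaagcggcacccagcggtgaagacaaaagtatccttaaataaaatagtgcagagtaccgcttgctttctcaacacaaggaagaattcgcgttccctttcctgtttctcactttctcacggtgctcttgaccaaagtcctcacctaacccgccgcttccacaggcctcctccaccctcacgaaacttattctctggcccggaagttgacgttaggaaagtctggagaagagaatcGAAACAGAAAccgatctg
Ikbke, chr1:131279514-131279813, minus strand: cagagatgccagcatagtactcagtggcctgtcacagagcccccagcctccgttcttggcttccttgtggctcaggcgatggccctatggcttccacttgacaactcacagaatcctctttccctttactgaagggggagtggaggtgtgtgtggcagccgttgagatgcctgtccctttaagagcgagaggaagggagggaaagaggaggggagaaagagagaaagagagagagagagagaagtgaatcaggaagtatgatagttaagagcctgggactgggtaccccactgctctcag
Tbk1, chr10:121586745-121587044, minus strand: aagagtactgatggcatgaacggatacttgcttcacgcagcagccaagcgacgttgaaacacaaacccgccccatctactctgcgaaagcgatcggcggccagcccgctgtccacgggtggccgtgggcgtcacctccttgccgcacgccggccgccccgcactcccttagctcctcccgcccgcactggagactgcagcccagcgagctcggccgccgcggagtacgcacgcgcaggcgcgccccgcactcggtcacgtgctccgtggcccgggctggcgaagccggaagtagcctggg

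The Ddx58 window held TTTCGATTTC, the ISRE core read on the opposite strand, from base 3 after the start site. The Ifih1 window held GAAACAGAAA from base 33. Across the 32851 promoters of the same length in the table, 1131 (3.44%) held this core. The NF-kB motif GGGANNTTCC, found in 1.47% of these promoters, and the GAS motif TTCNNNGAA, found in 8.30%, matched none of the members' windows; an ISRE core and a GAS motif can share bases, and both were searched on both strands. A promoter was read for 7 of the 10 genes, in 8 windows since Trex1 had 2 start sites. The windows of Cgas, Mavs and Trex1 also held no match to these motifs. Zbp1, Dhx58 and Sting1 are named only, and no promoter of theirs was searched. A match describes these letters and is neither a binding site nor a cause of the values below.

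Signals are background-subtracted scanner intensities in arbitrary units, scaled so that each array had a trimmed mean of 2500, and a gene was represented by its probe with the highest CML EV signal. A gene was called higher or lower where its signals differed by at least 1.2-fold, a log2 ratio of 0.26. All 10 genes were well above background on both arrays, as were 15 of the 16 probes, the exception being a probe of Ikbke. At least 1.2-fold higher with CML EVs were 4 of the 10 genes, Ikbke, Zbp1, Dhx58 and Ddx58, where 6.96% of the 13411 genes well above background on both arrays were higher. None of the 10 was at least 1.2-fold lower, where 7.52% of all genes were. In numbers, 933 of all genes were higher and 1009 lower, a split that moved to 1475 and 662 with median scaling and to 500 and 335 with normexp background correction. The median log2 ratio was 0.17 over the 10 genes and 0.01 over all genes, whose quartiles lay at -0.09 and 0.09. No member reached 1.5-fold in either direction, against 1.52% of all genes higher and 1.18% lower. In such bulk RNA, fewer cells of a type and less RNA per cell cannot be told apart.

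**Figure D1:**
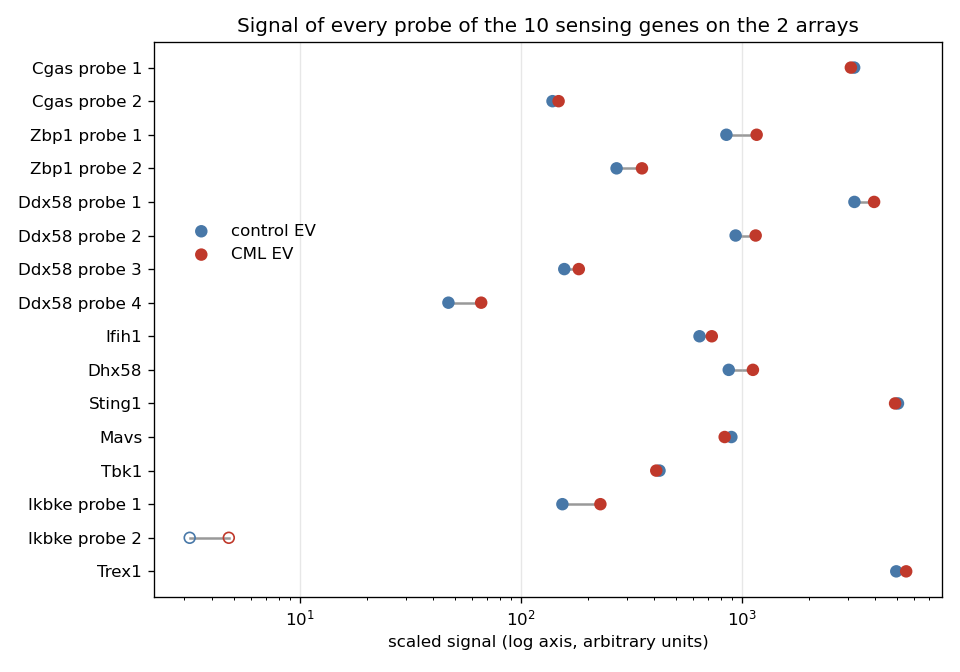
Scaled signal (log axis, arbitrary units) of each of the 16 probes of the 10 genes on the control EV array (blue) and the CML EV array (red), 1 array each; open circles mark the Ikbke probe that was not well above background. The red point lies to the right for every probe of Zbp1, Ddx58, Ifih1, Dhx58 and Trex1.

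Of the sensors outside the RIG-I-like receptors, the Cgas probe used differed by less than its model error and Zbp1 was higher with CML EVs. Cgas, the enzyme that binds cytosolic double-stranded DNA, read 3205 with control EVs and 3096 with CML EVs, a log2 ratio of -0.05. The signal of this probe was 1.03-fold lower, and the other Cgas probe gave 139 and 148, a log2 ratio of 0.09, so that the probes did not share a sign. Zbp1, a sensor of Z-form nucleic acid that can start necroptosis, read 847 with control EVs and 1161 with CML EVs, 1.37-fold higher (log2 ratio 0.45). Its other probe, assigned to a different RefSeq transcript, read 270.0 and 352, a log2 ratio of 0.38. Both Zbp1 probes were higher, and Zbp1 ranked 355 of 13411 genes by log2 ratio, with 2.64% of genes above it. The log2 ratio of Zbp1 lay 0.50 above that of Cgas, with an error of 0.29 from the scanner software's error model, which covers the measurement of a spot and not the spread between cultures.

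All 3 RIG-I-like receptor genes had a higher signal with CML EVs, with a median log2 ratio of 0.30, and 2 of them passed 1.2-fold. Ddx58, which encodes RIG-I, the receptor of RNA with uncapped ends, was measured by 4 probes. The probe used for the gene gave 3214 with control EVs and 3945 with CML EVs, 1.23-fold higher (log2 ratio 0.30), and the others gave 933 and 1149, 157 and 182, and 46.9 and 65.9. The log2 ratios of these other probes were 0.30, 0.22 and 0.49, so that all 4 were higher and 3 of them by at least 1.2-fold. Dhx58 encodes LGP2, a receptor that lacks the signalling domains of its relatives and modulates them. It read 868 with control EVs and 1116 with CML EVs, 1.29-fold higher (log2 ratio 0.36), and 4.04% of all genes had a higher ratio. Ifih1, which encodes MDA5, the receptor of long double-stranded RNA, gave 640.3 and 728, 1.14-fold higher (log2 ratio 0.18), short of 1.2-fold. The ratios of Dhx58 and Ddx58 exceeded that of Ifih1 by 0.18 and 0.11 on the log2 scale, both below the model error of 0.29 of these differences.

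**Figure D2:**
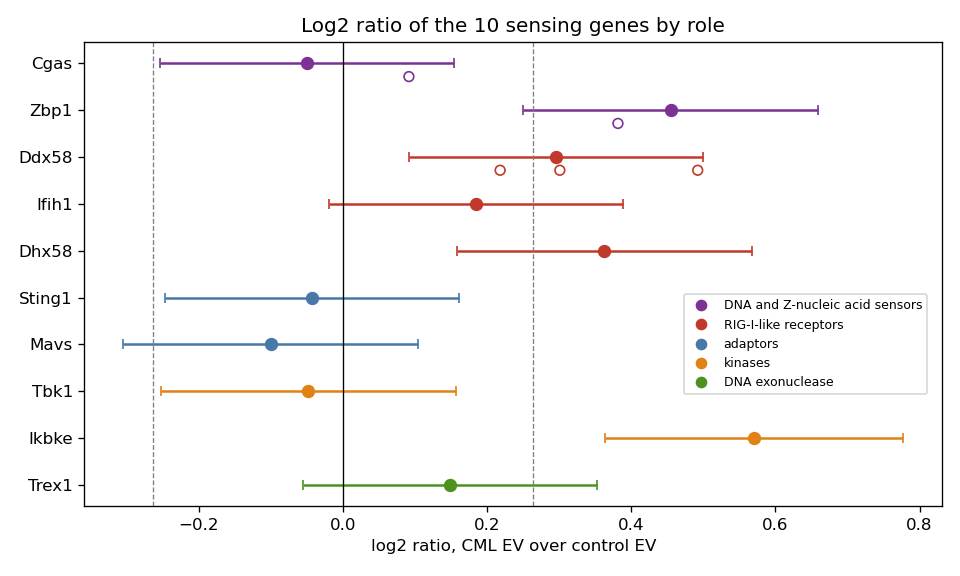
Log2 ratio of CML EV over control EV for the 10 genes, coloured by role; filled points are the probe used for the gene, open points its other probes above background, bars the error model of the scanner software (technical error only), dashed lines 1.2-fold. Ikbke, Zbp1, Dhx58 and Ddx58 lie beyond 1.2-fold, and Cgas, Sting1, Mavs and Tbk1 lie just below 0, of which Cgas, Sting1 and Tbk1 turn above 0 with median scaling.

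Neither adaptor passed 1.2-fold in either direction. Sting1, the endoplasmic reticulum protein that binds cGAMP, read 5057 with control EVs and 4908 with CML EVs, a log2 ratio of -0.04. Mavs, the mitochondrial adaptor of RIG-I and MDA5, had 892 and 832, a log2 ratio of -0.10 or 1.07-fold lower. Both were measured by 1 probe and both differences were within the model error of 0.20. Mavs ranked 10335 of 13411 and was the lowest of the 10 genes, and 22.9% of all genes had a lower ratio. The log2 ratio of Dhx58 exceeded that of Mavs by 0.46, that of Ddx58 by 0.40 and that of Ifih1 by 0.28, with a model error of 0.29 for each, so that the last difference did not exceed the error. On the DNA side, Cgas and its adaptor Sting1 had nearly the same ratio, with a difference of -0.01.

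The kinases lay apart. Tbk1, the kinase that phosphorylates IRF3 downstream of both adaptors, gave 422 with control EVs and 408 with CML EVs, a log2 ratio of -0.05. Ikbke, which encodes IKK-epsilon, the related kinase whose expression is inducible in many cells, gave 154 and 228, 1.49-fold higher (log2 ratio 0.57). This was the highest ratio among the 10 genes, at 2.76 times its model error and with 1.63% of all genes above it. The log2 ratio of Ikbke exceeded that of Tbk1 by 0.62, with a model error of 0.29. A further Ikbke probe, assigned to a predicted RefSeq transcript, read 3.17 and 4.76 and was not well above background on either array, so that the value of this gene rests on 1 probe. Trex1, the exonuclease that degrades DNA in the cytosol, gave 4969 and 5509, 1.11-fold higher (log2 ratio 0.15) and within its model error of 0.20. Its ratio exceeded that of Cgas by 0.20, with a model error of 0.29.

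**Figure D3:**
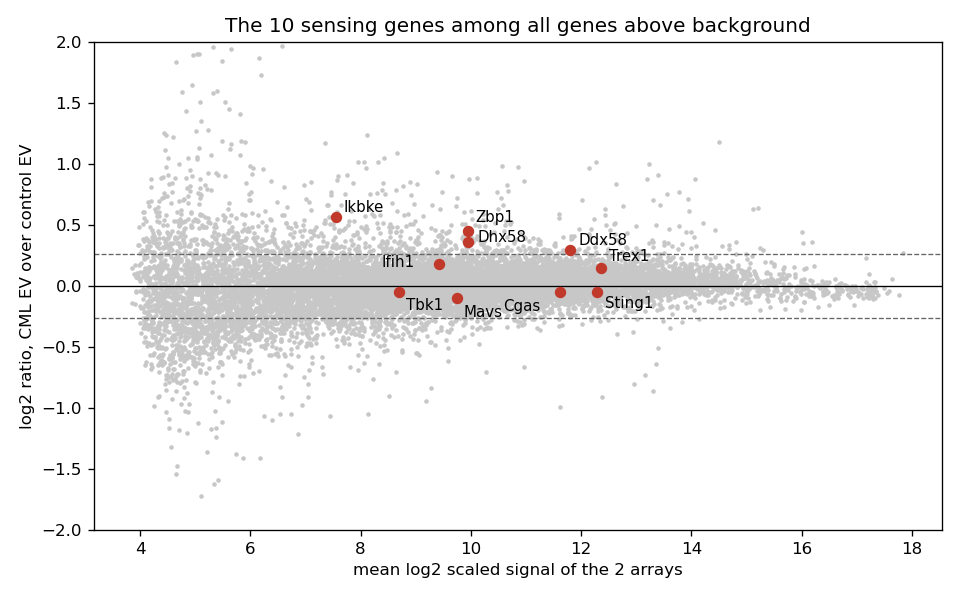
Log2 ratio of CML EV over control EV plotted by mean log2 scaled signal; grey points are the 13411 genes above background on both arrays ( 4 of them lie beyond the vertical axis) and red points the 10 sensing genes; dashed lines mark 1.2-fold. Ikbke lies at a log2 ratio of 0.57, and Zbp1, Dhx58 and Ddx58 lie above the upper dashed line.

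The technical error of a ratio was read in 2 ways. The error model gave 0.20 to 0.24 on the log2 scale for the 15 probes above background, and Ikbke, Zbp1, Dhx58 and Ddx58 lay at 2.76, 2.23, 1.78 and 1.45 times that error. The other reading used 276 repeatedly placed probes with a mean log2 signal of at least 7 and at least 5 spots left without outlier spots. Between spots of such a probe, the SD of the log2 ratio had a median of 0.03, with 5th and 95th percentiles of 0.02 and 0.06. Dimmer probes are not covered by it. The log2 ratios of Cgas, Sting1 and Tbk1 were of the size of this spot-to-spot spread. The choice of scaling touched these genes too. Scaling each array to its median raised the ratios of all genes by 0.07, and with it Cgas, Sting1 and Tbk1 lay at 0.02, 0.03 and 0.02, while Mavs stayed below 0 at -0.03. Zbp1 (0.40 to 0.52), Ddx58 (0.27 to 0.37), Dhx58 (0.33 to 0.43) and Ikbke (0.44 to 0.64) kept a difference of at least 1.2-fold under all 10 alternatives that gave a ratio for each gene. Ifih1 (0.15 to 0.25) and Trex1 (0.11 to 0.22) lay between 0 and 1.2-fold under the same 10. Not all of these settings could move the members. Deposited values, kept outlier spots and the probe with the highest control EV signal left every member's ratio unchanged. Scaling on the 75th percentile or on the mean of all spots shifted the ratios by only 0.008 and 0.011.

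**Figure D4:**
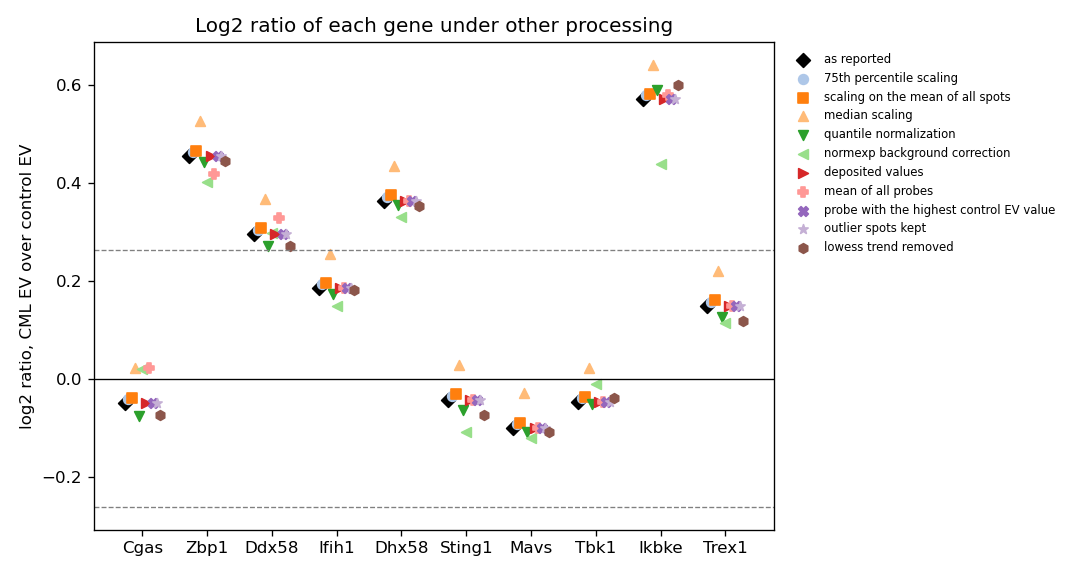
Log2 ratio of CML EV over control EV for each of the 10 genes as reported (black diamonds) and under 10 alternatives of scaling, background correction, probe choice, outlier handling and trend removal; dashed lines mark 1.2-fold. Ikbke, Zbp1, Dhx58 and Ddx58 lie above the upper dashed line under every setting drawn, Mavs lies below 0 under every setting drawn, and Cgas, Sting1 and Tbk1 cross 0 with median scaling.

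Around the 10 genes, the surrounding machinery was read from a list of 129 further genes in 10 roles. On both arrays 124 of them were well above background. Of these 124, 12 were at least 1.2-fold higher with CML EVs, not far above the 6.96% of all genes. At least 1.2-fold lower were 0 of the 124, where 7.52% of all genes were. The median log2 ratio of the 124 was 0.05, close to the 0.01 of all genes. Above 0 lay 87 of the 124, beside 6967 of the 13411 genes in all, and with median scaling, which raised every gene alike, these numbers were 108 and 9531. Of the other 5 genes, Trex2, Slc46a2, Gjb2 and Il12b were not well above background on either array and Rnaset2b was matched to no probe.

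The role with the highest median, 0.27, was that of target genes of IRF3 and NF-kB. Of its 9 measured genes, 5 were at least 1.2-fold higher, where 6.96% of all genes were. This role is as small as those below, so that its count cannot be set firmly against that share either. The paper had also named Cxcl10 among the top upregulated interferon genes of its own analysis of these arrays. The count is therefore not independent of these data. Ifnb1, the gene of interferon beta, was dim, at 27.6 with control EVs and 39.9 with CML EVs (log2 ratio 0.53, model error 0.26). Cxcl10, a chemokine of the interferon response, gave 662 and 861, a log2 ratio of 0.38. Isg15, a ubiquitin-like protein induced by interferon, gave 12959 and 16461, a log2 ratio of 0.35. The others, named after their values were seen, were Ifit1 (log2 ratio 0.31) and Ccl2 (0.27). At the other end of this role lay the cytokine genes Il12a, at 360.3 and 307 (log2 ratio -0.23), and Il6, at 542 and 503 (log2 ratio -0.11), the latter with another probe at 0.04.

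Among 11 transcription factor genes, 2 were at least 1.2-fold higher, a number too small to set against the 6.96% of all genes. Irf7, the interferon-inducible relative of Irf3, gave 25156 with control EVs and 32428 with CML EVs, a log2 ratio of 0.37, and its other probe gave 0.49. Stat2, a subunit of the complex that binds the ISRE, gave 2406 and 2909, a log2 ratio of 0.27, but its other probe gave -0.24, so that its direction is uncertain. Irf3 itself, the substrate of TBK1, gave 5759.6 and 5838, a log2 ratio of 0.02, with its other probe at 0.14. Irf9 gave 2790.5 and 2789.9, with its other probe at 0.19. Rela and Nfkb1, subunits of NF-kB, had log2 ratios of -0.12 and -0.08, with another probe of Rela at 0.10.

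**Figure D5:**
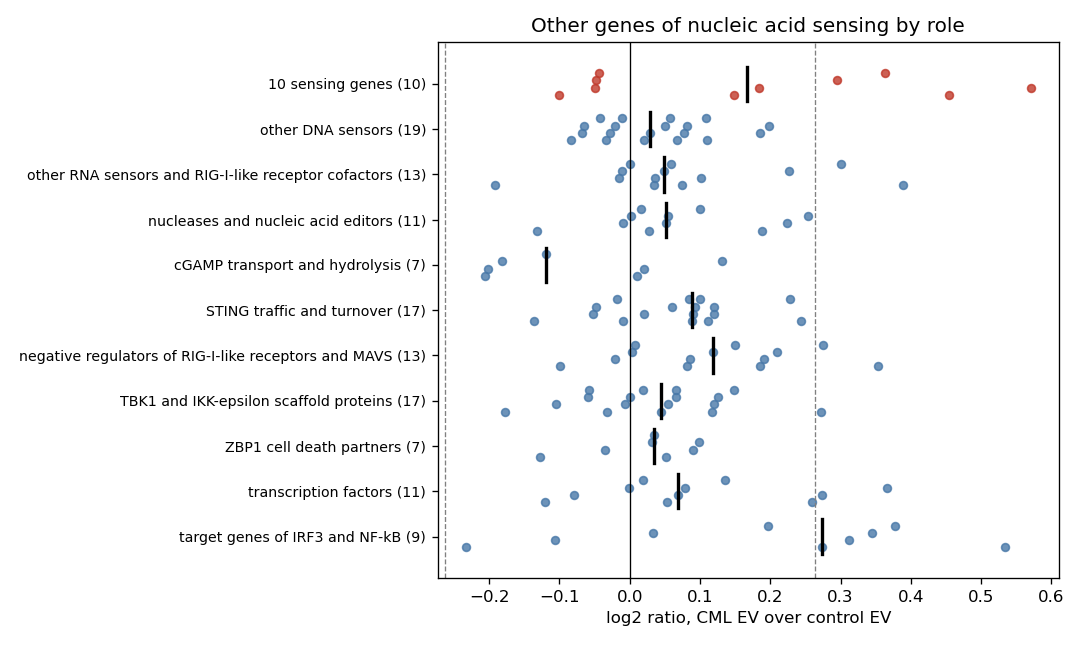
Log2 ratio of CML EV over control EV of single genes (points) in the 10 sensing genes (red) and in 10 roles of the surrounding machinery (blue, number of measured genes in brackets), with the median of each role as a vertical bar and 1.2-fold as dashed lines. Medians run from -0.12 for cGAMP transport and hydrolysis to 0.27 for target genes of IRF3 and NF-kB, and no gene lies beyond 1.2-fold on the lower side.

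Of 19 further DNA sensor genes 0 passed 1.2-fold in either direction, a number too small to set against the 6.96% and 7.52% of all genes, and their median log2 ratio was 0.03. The highest were Ifi204, the mouse relative of human IFI16, at 4192 with control EVs and 4808 with CML EVs (log2 ratio 0.20), and Polr3a, the large subunit of RNA polymerase III, at 333 and 378 (0.19). Aim2, the DNA sensor of the inflammasome, gave 396 and 418 (0.08). The lowest were Prkdc at -0.08 and Rad50 at -0.07, both known for repair of double-strand breaks, with another Rad50 probe at -0.36, and Rad50 lay above 0 with median scaling. Among 13 RNA sensors and cofactors of the RIG-I-like receptors, 2 were at least 1.2-fold higher, likewise too few to set against the 6.96%. Eif2ak2, the interferon-induced kinase PKR, gave 1814 and 2233 (log2 ratio 0.30). Trim65, a ubiquitin ligase of MDA5, was dim at 28.3 and 37.1 (log2 ratio 0.39, model error 0.29). Prkra, an activator of PKR, was the lowest at 719 and 629.6 (-0.19), and Dhx15 lay at -0.02, and above 0 with median scaling.

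The 13 negative regulators of the RIG-I-like receptors and MAVS had a median log2 ratio of 0.12, and 2 of them were at least 1.2-fold higher. Counts this small, here and in the roles that follow, cannot be set against the 6.96% higher and 7.52% lower of all genes. Nlrx1, a mitochondrial inhibitor of MAVS, gave 472 with control EVs and 603 with CML EVs (log2 ratio 0.35), but another of its probes gave -0.30. Tnfaip3, the deubiquitinating enzyme A20 induced by NF-kB, gave 586 and 709 (log2 ratio 0.27). The 17 genes of STING traffic and turnover had a median of 0.09, and none passed 1.2-fold. Usp18, an interferon-induced deISGylase that also acts on STING, gave 2171 and 2571 (0.24), and Rhbdf2, which encodes iRhom2, a STING transport factor, gave 701 and 821 (0.23). Stim1, which retains STING in the endoplasmic reticulum, had a log2 ratio of -0.05, with probes from -0.35 to 0.13, and lay above 0 with median scaling, and Zdhhc1 gave -0.14. Among 17 scaffold proteins of TBK1 and IKK-epsilon the median was 0.05, with Traf5 at 183 and 221 (0.27) as the only gene past 1.2-fold and Ikbkb at 0.15, for which another probe gave -0.33. Traf3, the adaptor between MAVS and TBK1, had a log2 ratio of -0.06 and lay above 0 with median scaling, and the lowest were Tab3 at -0.18 and Sike1, a suppressor of IKK-epsilon, at -0.10.

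Among the 10 roles of the surrounding machinery, only the steps around the second messenger had a median below that of all genes. Over 7 measured genes of cGAMP transport and hydrolysis it was -0.12, with 3 genes above 0 and 4 below. None passed 1.2-fold, a number too small to set against the 6.96% higher and 7.52% lower of all genes. Slc19a1, a folate carrier that also imports cGAMP, gave 4496 with control EVs and 3899 with CML EVs (log2 ratio -0.21, model error 0.20). The connexin gene Gja1 gave 77.7 and 67.6 (-0.20, model error 0.22), so that both ratios were about the size of their error. Enpp1, the hydrolase of extracellular cGAMP, gave 132 and 144 (0.13). Among 11 nucleases and nucleic acid editors the median was 0.05. Samhd1, a hydrolase of deoxynucleotides, gave 4164 and 4962 (0.25), just under 1.2-fold, with 3 probes from 0.20 to 0.27. Pld3, a lysosomal exonuclease, lay at 0.22 with another probe at -0.11, and Dnase2a, the lysosomal DNase, lay at -0.13 with another probe at 0.25, so that the direction of both is uncertain. The 7 cell death partners of ZBP1 had a median of 0.04. Mlkl, the executor of necroptosis, gave 789 and 844 (0.10), Pgam5 lay at 0.09, Ripk3, the kinase that ZBP1 recruits, gave 5706 and 5225 (-0.13), and Casp6 lay at -0.04, turning above 0 with median scaling.

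The labelled cells were checked by their markers, whose part in the results above was not tested. Kit gave 1646 with control EVs and 1529 with CML EVs, Ly6a, the gene of Sca-1 and itself interferon-inducible, 1548 and 1985, and Cd34 24845 and 21996. Of 12 stem and progenitor genes 11 were well above background on both arrays, Mecom on neither, and 10 of the 11 were lower with CML EVs, 9 with median scaling (median log2 ratio -0.18; summed signal 53835 and 48945). Granulocyte genes differed the other way: 9 of 11 were higher (median log2 ratio 0.44), and Cxcr2 and Mmp8 were lower, both at -0.09. Their summed signal was 532348 and 686361, much of it from Mpo at 213990 and 258638. Elane had the highest ratio of these genes, at 15311 and 34735 (log2 ratio 1.18). Of 11 monocyte and macrophage genes above background 9 were higher (median 0.11; summed signal 57161 and 75918), with C1qa above background on neither array. All 8 megakaryocyte genes were lower (median -0.29; summed signal 76735.5 and 69566), 7 of them with median scaling. Beside these counts, 6967 of all 13411 genes were higher and 6444 lower, or 9531 and 3880 with median scaling. The dendritic cell genes Cd209a, Xcr1 and Zbtb46, the B cell genes Cd79a and Ms4a1, the T and NK cell genes Cd3g, Cd8a and Ncr1 and the erythroid gene Alas2 were above background on neither array, whereas 6 of 9, 3 of 8, 4 of 10 and 4 of 9 genes of these lists were on both, with medians of 0.02, 0.03, -0.09 and 0.14. Their summed signals were 37651 and 39861 for dendritic cells, 1073 and 1087 for B cells, 2107 and 1972 for T and NK cells and 5640 and 5988 for erythroid cells.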

How the data were processed

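LKS+ cells co-cultured with control or CML EVs were measured on 1 one-colour Agilent array each. The authors' scanner files hold the background-subtracted intensity of each spot, with flags, written by Agilent Feature Extraction (12.0.3.1 in the submitters' processing notes). The deposited value table holds this intensity multiplied by a constant for each array and is not on a log scale. Of 59305 spots that are not control spots, 32269 (54.4%) were well above background with control EVs and 31635 (53.3%) with CML EVs, and none was saturated.

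From the scanner intensity, spots flagged as outliers (95 and 88) were dropped. Signals were scaled to a 2%-trimmed mean of 2500 per array and averaged as log2 values over repeated spots. Gene names came from the probes' unversioned RefSeq accessions (GRCm38.p6 table): 32994 of 56604 had a name, and 23610 without were left out. The highest CML EV probe stood for a gene. Promoters were matched by symbol and searched for motifs on both strands. The ratio and threshold steps were run on simulated data made from the control EV array. Its noise was smaller than the model error and its planted changes lay beyond the threshold. That run checks the computation and not how reliable a 1.2-fold difference is between these cultures. Alternatives covered scaling, quantile normalization, normexp (limma 3.58.1, offset 50), deposited values, probe choice, outlier spots, the filter on dim probes and the fold threshold, and removal of a lowess trend (statsmodels 0.14.6, span 0.3) was added after seeing the data. Named genes were all 10 members, the 2 highest and 2 lowest genes of each role, and Aim2, Irf3, Irf7, Irf9, Stat2, Traf3, Isg15 and Ifnb1; a few other listed genes are not reported here. The members and lists were chosen with earlier results of these data known. Precision is limited by the number of arrays, 1 per condition. Software was R 4.3.3, pandas 2.3.3, numpy 2.4.6 and Python 3.11.15.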

Additional observations from a re-analysis of the deposited data

How the results depend on the processing

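No paired analysis was possible because the labels number no replicates and either group holds 1 array, and no array could be left out. The main counts of at least 1.2-fold were 4 members higher and 0 lower, 12 pathway genes higher and 0 lower, and 933 of all genes higher and 1009 lower, with median log2 ratios of 0.17 for the members and 0.05 for the pathway list. With median scaling the medians were 0.24 and 0.12, 21 pathway genes were higher, and 1475 of all genes were higher and 662 lower. With normexp the median of the members was 0.13, 7 pathway genes were higher, and 500 of all genes were higher and 335 lower. With the mean of all probes 3 pathway genes were lower. Without a filter on dim probes 2 pathway genes were lower, and 2564 of all genes were higher and 2864 lower. At a 1.1-fold threshold 27 pathway genes were higher and 6 lower, and 2318 of all genes were higher and 2310 lower. At 1.5-fold 0 members and 0 pathway genes were higher, and 204 of all genes were higher and 158 lower. Fewer or more genes pass a threshold by its construction; the cause of the other differences was not tested. Among values of single members, Cgas (0.02), Sting1 (0.03) and Tbk1 (0.02) lay above 0 with median scaling, while normexp (0.02) and averaging the probes (0.02) placed Cgas above 0 too. Dim probes carry more error: the model error of a log2 ratio was 0.20 for Cgas and 0.24 for the Ddx58 probe with signals of 46.9 and 65.9.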
